A study of Arabidopsis thaliana with 54 samples.

Results

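The XTH genes encode the xyloglucan endotransglucosylase/hydrolases of the plant cell wall. The 33 *XTH* genes of *Arabidopsis thaliana*, *XTH1* to *XTH33*, were taken by gene identifier from the 34262 genes of the count tables, and 28 of the 33 were abundant enough to be tested. The RNA came from whole roots of 5-day-old seedlings of the Col-0 ecotype, cut from their aerial parts after growth on a mesh. Seedlings were moved onto fresh medium with 100 nM CIF2 peptide or without peptide and harvested 30, 120 or 480 min later, so that every group, untreated or treated, had been through the transfer. The 3 genotypes were wild type, the *cif1-2 cif2-2* double mutant (here *cif1 cif2*), which carries CRISPR alleles of the genes for the peptides CIF1 and CIF2, and *sgn3-3* (here *sgn3*), a T-DNA insertion line of the receptor gene *SGN3*. Each mutant is 1 line, and each of the 18 groups had 3 libraries, 1 from each of 3 batches. Since whole roots were sampled at a given time after transfer, fewer cells of a type and less RNA per cell cannot be told apart, and neither can time after transfer and time of day.

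Xyloglucan is a hemicellulose that coats and links the cellulose microfibrils of the primary wall. XTH proteins cut a xyloglucan chain and join the cut end to another chain (transglucosylase activity) or to water (hydrolase activity), and by doing so remodel walls that are growing, being reinforced or being repaired. Most members belong to the group I/II and III-B transglucosylases, *XTH31* and *XTH32* form the hydrolase-type group III-A, and *XTH1*, *XTH2*, *XTH3* and *XTH11* form the ancestral group. CIF2 is a sulfated peptide made in the stele and sensed by the receptor kinase SGN3 on endodermal cells, where it drives closure of the Casparian strip and, in excess, added lignin and suberin.

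The 3 members whose transcripts rose with CIF2 in both responding genotypes were *XTH18*, *XTH20* and *XTH23*. The 250 bases before their annotated starts are shown because their CIF2 effects were largest at different times. Capitals mark TTGAC, the core of the W-box bound by WRKY factors, and CGCGTT, a core bound by CAMTA calmodulin-binding factors, each on either strand (GTCAA and AACGCG are the reverse complements). The sequences are from RefSeq on TAIR10.1, 5′ to 3′ toward the gene: *XTH18* (AT4G30280) at chr4:14827212-14827461 on the minus strand, *XTH20* (AT5G48070) at chr5:19481647-19481896 on the plus strand and *XTH23* (AT4G25810) at chr4:13128144-13128393 on the plus strand.
XTH18: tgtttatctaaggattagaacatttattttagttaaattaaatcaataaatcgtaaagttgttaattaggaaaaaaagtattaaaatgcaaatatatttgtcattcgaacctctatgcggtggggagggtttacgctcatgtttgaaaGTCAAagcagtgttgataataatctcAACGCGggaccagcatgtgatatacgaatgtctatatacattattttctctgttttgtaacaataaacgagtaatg
XTH20: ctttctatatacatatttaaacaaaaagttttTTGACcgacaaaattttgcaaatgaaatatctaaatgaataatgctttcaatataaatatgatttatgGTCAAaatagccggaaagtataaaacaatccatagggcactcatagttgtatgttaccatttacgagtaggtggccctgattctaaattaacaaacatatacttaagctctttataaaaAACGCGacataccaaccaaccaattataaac
XTH23: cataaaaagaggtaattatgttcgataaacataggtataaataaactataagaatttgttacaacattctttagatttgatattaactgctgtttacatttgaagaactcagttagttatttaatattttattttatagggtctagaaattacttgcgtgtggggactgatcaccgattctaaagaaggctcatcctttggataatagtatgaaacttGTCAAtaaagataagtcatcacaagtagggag
The *XTH20* window holds 2 W-box cores and 1 CAMTA core, the *XTH18* window 1 of each, and the *XTH23* window 1 W-box core and no CAMTA core. TTGAC was present in 15 of the 33 member promoters and in 44.9% of 27443 promoters of the same length. CGCGTT was present in 3 of 33, *XTH13*, *XTH18* and *XTH20*, and in 2.59% of all promoters. The GCC box of ERF factors (GCCGCC) and the G-box (CACGTG), also searched on both strands, were in 0 of the 33 member windows, against 1.87% and 6.49% of all promoters. *XTH13*, which shares the CAMTA core, passed the test in none of the 9 comparisons of CIF2 with no peptide, and a match of letters is a description of the window only.

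Libraries held 21328819 to 38588050 gene counts, with a median of 28866174. Levels are given as CPM, counts scaled to a common library total after normalization by the trimmed mean of M-values (TMM). *SGN3* was between 105 and 171 CPM in untreated wild type and between 21.8 and 40.2 CPM in untreated *sgn3*, which goes with the labels, whereas CIF2 transcripts were still counted in *cif1 cif2*, so their level does not check that genotype. In 3 libraries of *cif1 cif2* the title gives CIF2 for 480 min and another label gives no peptide; they were taken as treated. They are the only treated libraries of that group, so each CIF2 effect of *cif1 cif2* at 480 min rests on them and has no value without them.

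Of the 5 members that were not tested, *XTH1* had 0 counts in all 54 libraries, which allows at most 3 counts in each, and *XTH3*, *XTH6*, *XTH25* and *XTH29* reached at most 1, 3, 2 and 8 counts in any library. Because longer transcripts give more reads, levels were compared between members per kb of exon. *XTH14* (AT4G25820), which acts in root elongation, had the highest median over the 54 libraries, 276 CPM per kb. It was followed by *XTH31* (AT3G44990) at 127, *XTH18* at 99.6, *XTH24* at 91.6 and *XTH17* at 89.0 CPM per kb. The lowest tested members were *XTH2* at 0.613 and *XTH11* at 0.47 CPM per kb, both of the ancestral group. The order changed with time in untreated wild type. At 30 min *XTH14* made up 17.3% of the per-kb sum of the family, and *XTH18* and *XTH24* 11.8% each. At 480 min *XTH31* led with 21%, ahead of *XTH14* with 13.9%, and *XTH24* had moved to position 13.

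**Figure D1:**
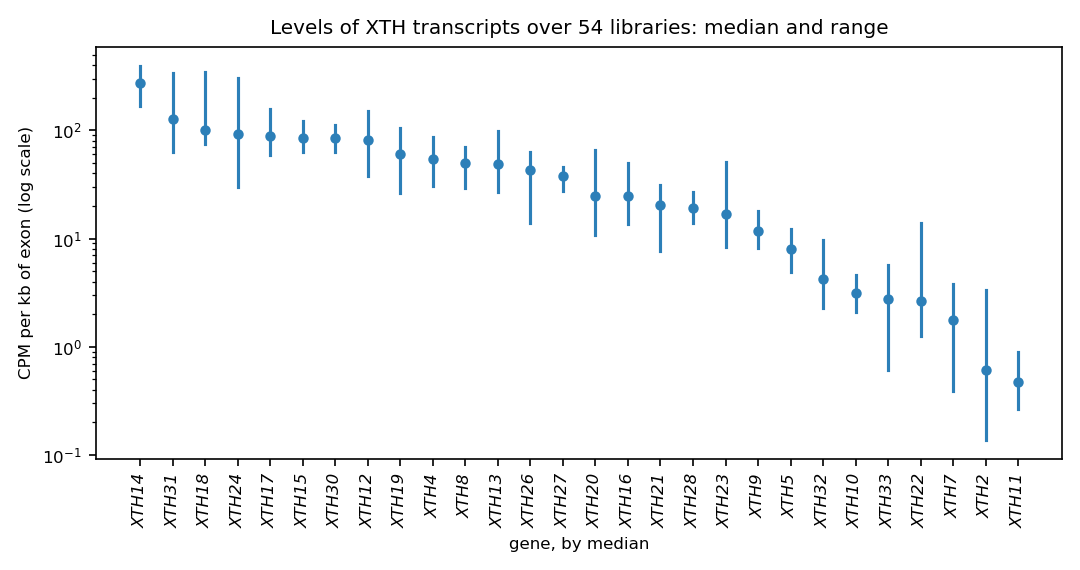
Level of each tested XTH gene in the 54 libraries, in CPM per kb of exon on a log axis, with the median as a point, the range over libraries as a line and the genes ordered by median. *XTH14* stands highest with a median of 276 CPM per kb, and *XTH2* and *XTH11* lie below 1.

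The first comparison asked how early CIF2 reached these genes. After 30 min 3 members rose and 0 fell in wild type, and 3 rose and 1 fell in *cif1 cif2*, with *XTH18* and *XTH23* shared. *XTH18*, a group I/II member, read 224, 245 and 286 CPM in the 3 untreated wild-type libraries and 435, 417 and 390 CPM with CIF2. The groups did not overlap, and the log2 fold change was 0.73 (SE 0.11, adjusted P = 8.19e-06). In *cif1 cif2* the same gene went from 194, 168 and 231 to 364, 407 and 409 CPM, a log2 fold change of 0.99 (SE 0.11, adjusted P = 6.87e-09). Both calls held under all 10 alternative settings.

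*XTH23*, also known as *XTR6*, read 47.3, 46.5 and 39 CPM without and 67.2, 69.7 and 53.4 CPM with CIF2 in wild type at 30 min. Each treated library was above each untreated library, with a log2 fold change of 0.52 (SE 0.11, adjusted P = 0.00153), and of 0.35 (SE 0.11, adjusted P = 0.0354) in *cif1 cif2*. *XTH20* rose by 0.52 on the log2 scale in wild type (SE 0.15, adjusted P = 0.0203), while its value in *cif1 cif2* was 0.27 (SE 0.15, adjusted P = 0.288). *XTH24* (AT4G30270), described first as the meristem gene *MERI5*, rose by 0.61 in *cif1 cif2* (SE 0.19, adjusted P = 0.0243), from 218, 233 and 134 to 291, 324 and 262 CPM, with a value of 0.45 in wild type (SE 0.19, adjusted P = 0.163). The member that fell in *cif1 cif2* was *XTH27* (AT2G01850), by 0.24 (SE 0.06, adjusted P = 0.00528). The *XTH23* call in wild type was lost without batch 2 (0.48, adjusted P = 0.112), and the *XTH23*, *XTH24* and *XTH27* calls in *cif1 cif2* and the *XTH20* call in wild type were each lost in at least 1 of the 3 fits that left out a batch, where their values ran from 0.34 to 0.42, 0.47 to 0.72, −0.27 to −0.18 and 0.46 to 0.61.

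Of the genes tested, 7.78% passed in wild type at 30 min (5.78% rose and 2.01% fell) and 11.6% in *cif1 cif2* (8.68% rose and 2.93% fell), and the 3 members that rose are 10.7% of those tested, a share not far from the background. The tested members had a median log2 fold change of −0.04 (wild type) and 0.00 (*cif1 cif2*), and 0.00 and −0.02 over all genes tested. No member reached a 2-fold change at 30 min (0 of 28 in each genotype by edgeR, against 1.17% and 1.86% of genes tested), *XTH18* in *cif1 cif2* lying just under that line.

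At 120 min the pattern was carried by *XTH20*, a group I/II member with a role in the reunion of cut stem tissue. In untreated wild type it read 15, 17.7 and 17.9 CPM, and with CIF2 52.8, 71.2 and 44.8 CPM. All treated libraries were well above all untreated ones, with a log2 fold change of 1.73 (SE 0.15, adjusted P = 8.29e-12). In *cif1 cif2* it went from 17.7, 17.7 and 23.1 to 65.3, 92.5 and 81.5 CPM, a log2 fold change of 2.02 (SE 0.15, adjusted P = 3.44e-14). *XTH20* was the 1 member past 2-fold in each genotype at this time, against 1.48% of genes tested in wild type and 2.10% in *cif1 cif2*, and both calls held under all 10 alternatives. In *sgn3* its levels were 17.8, 18.6 and 18.7 CPM without and 18.1, 20.5 and 19.5 CPM with peptide, so that the groups overlapped (log2 fold change 0.07, SE 0.15).

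**Figure D2:**
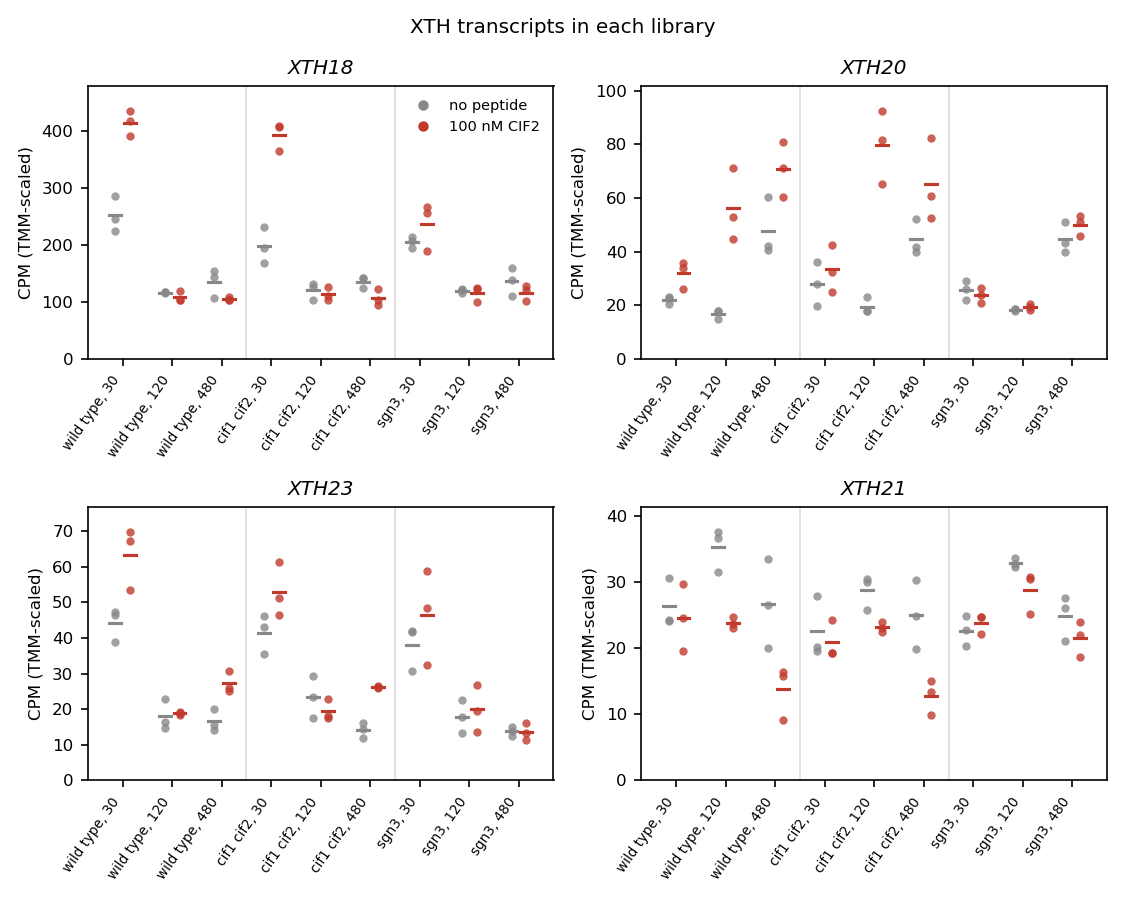
CPM of *XTH18*, *XTH20*, *XTH23* and *XTH21* in each library, by genotype, time and treatment, with 1 point a library. *XTH18* separates at 30 min and *XTH20* at 120 min in wild type and *cif1 cif2*, whereas the *sgn3* points with and without CIF2 lie together.

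Apart from *XTH20*, the members that changed at 120 min mostly fell. In wild type 9 of 28 members passed by adjusted P (32.1%, against 10.6% of genes tested), of which 8 were lower with CIF2 (4.28% of genes) and 1 was higher (6.30% of genes). In *cif1 cif2* 6 passed (21.4%, against 13.7%), of which 4 were lower (6.23% of genes) and 2 were higher (7.44% of genes). *XTH16* (AT3G23730) read 48.2, 53.6 and 49.3 CPM in untreated wild type and 28.5, 32.2 and 33.2 CPM with CIF2, with no overlap (log2 fold change −0.69, SE 0.11, adjusted P = 1.5e-05). *XTH15* (AT4G14130) went from 123, 114 and 128 to 81.3, 79.9 and 89.8 CPM, again with no overlap (−0.54, SE 0.10, adjusted P = 0.000184). *XTH21* (AT2G18800), with a known role in root growth, fell by 0.57 (SE 0.15, adjusted P = 0.00734), and *XTH27*, known as *EXGT-A3* from leaf vein development, fell by 0.38. *XTH4*, *XTH8*, *XTH17* and *XTH19* made up the 8, with values between −0.48 and −0.30. Those of *XTH4*, *XTH8*, *XTH17*, *XTH19* and *XTH21* lost the call in at least 1 fit that left out a batch (*XTH4* −0.29 without batch 3, *XTH21* −0.57 without batch 1, *XTH8* −0.26 without batch 2 or 3, *XTH17* −0.46 to −0.44 and *XTH19* −0.65 to −0.38), and *XTH27* moved to −0.24 without batch 1 and kept it there, but lost it (−0.38, adjusted P = 0.0644) when only the libraries compared were fitted.

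In *cif1 cif2* at 120 min *XTH31*, the most abundant hydrolase-type member, fell by 0.66 (SE 0.12, adjusted P = 4.32e-05), and *XTH16* and *XTH27* fell by 0.48 and 0.35. The *XTH16* call was lost without batch 3 (−0.36, adjusted P = 0.13). *XTH24* fell by 0.78 (SE 0.19, adjusted P = 0.00335), where it had risen at 30 min. Its untreated levels at 120 min were 180, 200 and 98.9 CPM and its treated levels 93.6, 102 and 77.7 CPM, so the groups overlapped through batch 3, and the call was lost without batch 1 (−0.71, adjusted P = 0.113) or batch 2 (−0.67, adjusted P = 0.0625). *XTH11* was the second member that rose, from 0.48, 0.40 and 0.68 to 0.86, 1.04 and 0.87 CPM (log2 fold change 0.81, adjusted P = 0.0239), at 11 to 26 counts a library. That call was lost without batch 1 (0.80) or batch 2 (0.57). The median of the tested members at this time was −0.19 (wild type) and −0.16 (*cif1 cif2*), and 0.00 over all genes tested in each.

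**Figure D3:**
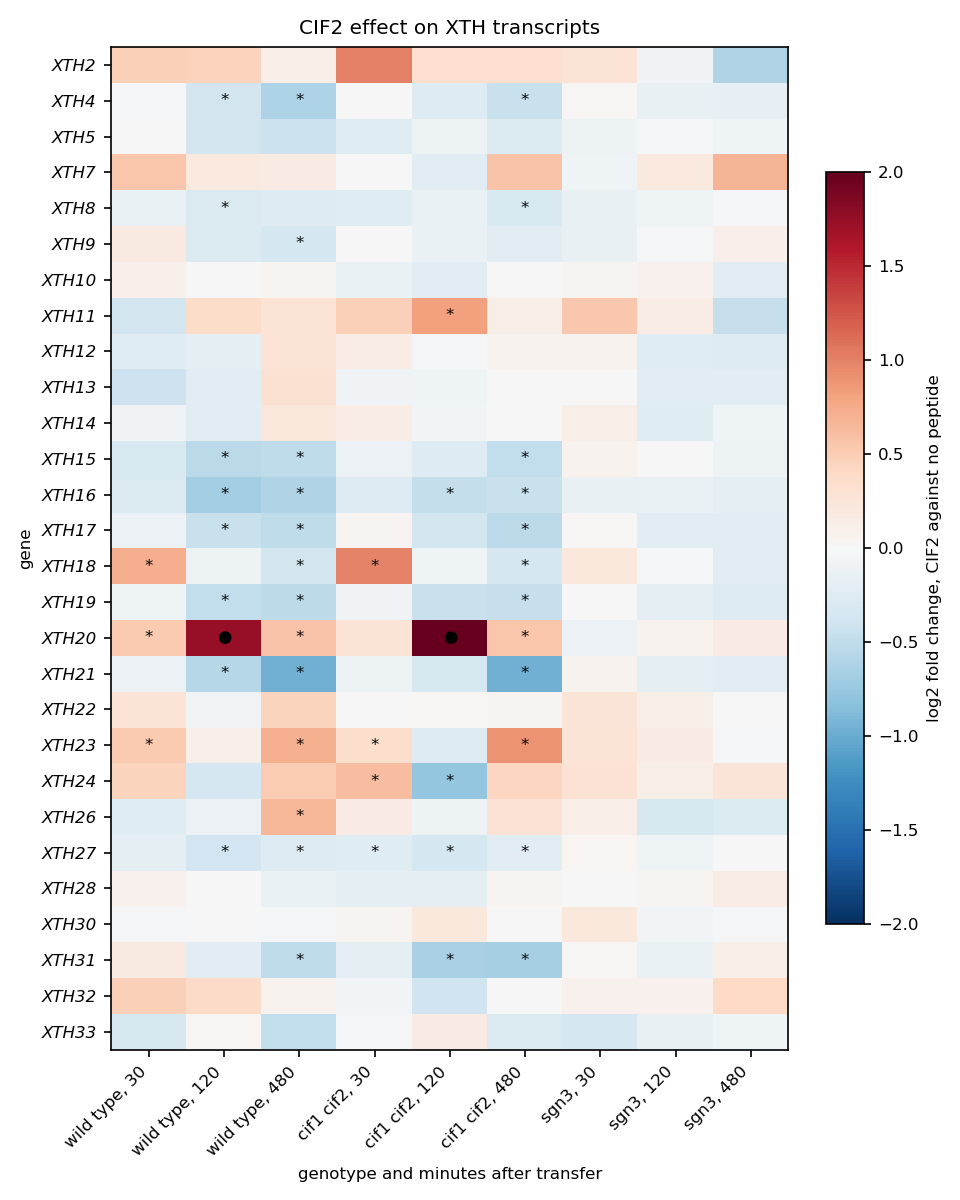
Log2 fold change with CIF2 against no peptide for each tested member in the 9 combinations of genotype and time, where an asterisk marks an adjusted P of at most 0.05 and a filled circle also a 2-fold change. The circles are both *XTH20* at 120 min, and the 3 columns of *sgn3* hold no mark.

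At 480 min wild type and *cif1 cif2* shared most of the members that passed. In wild type 13 of 28 members passed by adjusted P (46.4%, against 10.1% of genes tested), of which 10 were lower (3.23% of genes) and 3 were higher (6.88% of genes). In *cif1 cif2* 12 passed (42.9%, against 10.9%), of which 10 were lower (3.92% of genes) and 2 were higher (6.96% of genes). The members lower in both were 9 of 10 in each genotype: *XTH4*, *XTH15*, *XTH16*, *XTH17*, *XTH18*, *XTH19*, *XTH21*, *XTH27* and *XTH31*. The share of all genes tested that passed lower in both was not counted. The paper describes the responses of wild type and *cif1 cif2* to the peptide as nearly identical, so such sharing is not read as a trait of the family. By family group, 8 of the 21 tested group I/II members, 1 of 3 in group III-B and 1 of 2 in group III-A were lower in each genotype. The decreases were small: 0 members reached 2-fold at 480 min, against 2.29% of genes tested in wild type and 2.47% in *cif1 cif2*.

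Among the members that fell, *XTH21* fell the most. In wild type it went from 33.5, 20 and 26.5 CPM to 15.8, 16.4 and 9.16 CPM with CIF2, and in *cif1 cif2* from 30.3, 24.8 and 19.9 to 15, 13.4 and 9.82 CPM. Treated and untreated libraries did not overlap in either genotype, and the log2 fold change was −0.96 in each (SE 0.16, adjusted P = 1.24e-05 and 1.34e-05). *XTH31* stood at 370, 468 and 374 CPM in untreated wild type and at 285, 293 and 269 CPM with CIF2 (−0.51, SE 0.11, adjusted P = 0.00106). In *cif1 cif2* it went from 371, 403 and 366 to 256, 262 and 207 CPM (−0.66, SE 0.11, adjusted P = 2.79e-05). *XTH31* was by this time the leading member per kb in untreated wild type. *XTH4* (AT2G06850), a group I/II enzyme of growing tissue, fell from 87.1, 74.5 and 88.3 to 51.9, 60.8 and 49.9 CPM in wild type (−0.62, SE 0.09, adjusted P = 9.91e-07) and by 0.44 in *cif1 cif2* (adjusted P = 0.000417).

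*XTH15* and *XTH16* fell by 0.50 and 0.60 in wild type and by 0.50 and 0.45 in *cif1 cif2*. The genes *XTH17*, *XTH18* and *XTH19*, similar in coding sequence, fell by 0.51, 0.37 and 0.53 in wild type and by 0.52, 0.34 and 0.46 in *cif1 cif2*. *XTH21*, *XTH31*, *XTH4* and *XTH15* kept their call in both genotypes under every alternative, and *XTH16* in wild type. *XTH17*, *XTH18*, *XTH19* and *XTH27* lost it in at least 1 fit without a batch in each genotype. *XTH17* in wild type read −0.32 without batch 3 (adjusted P = 0.441), *XTH18* −0.25 without batch 3 (adjusted P = 0.517), *XTH19* −0.44 without batch 1 (adjusted P = 0.308) and *XTH27* −0.20 without batch 3 (adjusted P = 0.181). In *cif1 cif2* their values without a batch ran from −0.54 to −0.46 for *XTH17*, −0.40 to −0.29 for *XTH18*, −0.48 to −0.44 for *XTH19* and −0.25 to −0.21 for *XTH27*, and *XTH16* without batch 3 had an adjusted P of 0.0524. *XTH9* fell in wild type alone by the test within each genotype (−0.35, adjusted P = 0.0232, but −0.17 without batch 1, adjusted P = 0.553), and *XTH8* in *cif1 cif2* (−0.31, adjusted P = 0.0221, but −0.22 without batch 2, adjusted P = 0.397).

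Against this, *XTH20* and *XTH23* were higher with CIF2 at 480 min in both genotypes. *XTH23* read 20.2, 14.1 and 15.6 CPM in untreated wild type and 30.6, 25 and 26.1 CPM with CIF2 (log2 fold change 0.72, SE 0.12, adjusted P = 2.94e-05). In *cif1 cif2* it went from 16.2, 14.4 and 11.9 to 25.9, 26.4 and 26.2 CPM (0.90, SE 0.13, adjusted P = 5.57e-07). No treated library fell into the untreated range, and both calls held under every alternative. *XTH20* read 42.1, 60.4 and 40.7 CPM without and 60.4, 80.8 and 71.2 CPM with CIF2 in wild type (0.57, SE 0.14, adjusted P = 0.00346), touching at 60.4 CPM, and 0.55 higher in *cif1 cif2* (adjusted P = 0.00504). Without batch 1 these read 0.62 (adjusted P = 0.0602) and 0.52 (adjusted P = 0.115), and without batch 2 *cif1 cif2* read 0.50 (adjusted P = 0.129). *XTH26* (AT4G28850), a root hair and elongation zone member, was higher in wild type, with 16.3, 20 and 33.4 CPM untreated against 37.4, 32.2 and 38.9 CPM treated (0.66, adjusted P = 0.026, and 0.44 without batch 1, adjusted P = 0.148). At 480 min the median of the tested members was −0.08 (wild type) and −0.01 (*cif1 cif2*), and −0.01 over all genes tested in each.

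The summed level of the family was taken in CPM. In wild type at 480 min it was 1700.3 to 1942.1 CPM untreated and 1580.0 to 1587.0 CPM with CIF2, and in *cif1 cif2* 1815.7 to 2005.0 and 1599.7 to 1673.7 CPM. At 30 min the treated sums lay slightly higher, 2245.9 to 2441.0 against 2081.8 to 2256.3 CPM in wild type, where the ranges overlapped, and 2308.2 to 2439.5 against 1901.6 to 2118.2 CPM in *cif1 cif2*, where they did not. At 120 min the treated sums were lower without overlap in each genotype. In wild type they went from 1632.6 to 1834.3 CPM untreated to 1488.5 to 1492.5 CPM, and in *cif1 cif2* from 1749.8 to 1992.9 to 1665.5 to 1712.8 CPM. In *sgn3*, in which no member passed with CIF2 at that time, the treated sums were also lower without overlap, at 1836.9 to 1958.9 CPM untreated and 1650.4 to 1817.3 CPM treated. At 30 and 480 min the *sgn3* ranges overlapped, at 2020.0 to 2164.4 and 2039.8 to 2328.9 CPM and at 1606.4 to 1953.9 and 1673.2 to 1856.4 CPM.

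The summed level of markers of leaf tissue was lower with the peptide at 120 and 480 min in wild type and *cif1 cif2*. The 3 leaf markers (none at 0) summed to 41.7 to 46.7 CPM in untreated wild type at 480 min and to 20.1 to 26.2 CPM with CIF2, and in *cif1 cif2* to 30.2 to 46.7 and 19.7 to 29.6 CPM. At 120 min the sums were 32.1 to 40.5 and 27.5 to 30.6 CPM in wild type, and 35.8 to 54.7 and 21.2 to 29 CPM in *cif1 cif2*. Gene by gene, 1 of the 3 passed lower in wild type at 120 min, where 1 was higher without passing. In *cif1 cif2* at 120 min and in each of the 2 genotypes at 480 min, 2 of the 3 passed lower. The part of the leaf markers in the XTH values was not tested. Of the endodermis markers, *MYB36*, the regulator of Casparian strip differentiation, rose with CIF2 at each of the 3 times, by 1.04, 1.6 and 0.63 (wild type) and by 1.76, 1.76 and 0.77 (*cif1 cif2*) in order of time. *CASP1*, a Casparian strip membrane protein gene, was 0.60 higher in wild type at 480 min and 0.70 and 0.93 higher in *cif1 cif2* at 120 and 480 min. *SCR*, a regulator of endodermis identity, was lower in wild type at all 3 times (−0.21, −0.19 and −0.44) and in *cif1 cif2* at 120 and 480 min (−0.17 and −0.38). In *sgn3* none of the genes *MYB36*, *CASP1* and *SCR* passed with CIF2, and the part of these markers in the XTH values was not tested. Of the 4 root hair markers 0 passed the test in any comparison with CIF2, against 7.78 to 13.7% of genes tested in wild type and *cif1 cif2*. With so few markers, a count of 0 is near that share. The sums of the root hair markers at 480 min in wild type, 313.1 to 426.1 CPM untreated and 391.0 to 445.0 CPM treated, overlapped.

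The *sgn3* mutant tested whether these effects needed the receptor. By edgeR 0 of 28 members passed with CIF2 in *sgn3* at 30, 120 or 480 min, against 0.0305%, 0% and 0% of genes tested at the same adjusted P (0.0254%, 0% and 0% with a 2-fold change), and 2, 1 and 2 members had an unadjusted P under 0.05. DESeq2 and limma also gave 0 members with a 2-fold change. The difference between the CIF2 effects of *sgn3* and wild type was then tested itself. At 30 min it passed for 0 members by edgeR (1.89% of genes tested), with an unadjusted P under 0.05 in 7. *XTH18* at that time differed by −0.52 (adjusted P = 0.0873), so its loss in *sgn3* was not established by this test.

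At 120 min the difference passed for 3 members (10.7% of those tested, against 3.20% of genes tested). *XTH20* differed by −1.66 (SE 0.21, adjusted P = 9.14e-07), a value that held under all 10 alternatives. *XTH15* and *XTH16* differed by 0.52 (adjusted P = 0.03) and 0.55 (SE 0.16, adjusted P = 0.0362). In *sgn3* at this time *XTH16* read 43.0, 54 and 60.5 CPM without and 46.7, 48.7 and 47.5 CPM with CIF2. At 480 min 5 members passed (17.9%, against 4.52%). *XTH31* differed by 0.63 (SE 0.16, adjusted P = 0.0102), *XTH4* by 0.46 (SE 0.13, adjusted P = 0.0211), *XTH21* by 0.74 (SE 0.22, adjusted P = 0.037), *XTH23* by −0.75 (SE 0.18, adjusted P = 0.00591) and *XTH26* by −0.93 (SE 0.28, adjusted P = 0.0493). In each the *sgn3* effect was nearer to 0 than that of wild type. *XTH23* in *sgn3* read 15.1, 13.8 and 12.6 CPM without and 16.2, 13.3 and 11.4 CPM with CIF2. Other than *XTH20*, each of these differences lost its call in at least 2 alternatives, and *XTH21* read 0.48 without batch 3 (adjusted P = 0.378) and 1.15 without batch 2.

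No member was found to answer CIF2 differently in the absence of the endogenous peptides. The CIF2 effect in *cif1 cif2* minus that in wild type passed for 0 of 28 members at each time by edgeR, against 0.0153%, 0.290% and 0.00508% of genes tested, with 3, 3 and 0 members at an unadjusted P under 0.05. The differences ran from −0.55 (*XTH7*) to 0.84 (*XTH11*) at 30 min, from −0.78 (*XTH32*) to 0.45 (*XTH11*) at 120 min and from −0.40 (*XTH22*) to 0.40 (*XTH7*) at 480 min. A count of 0 does not show that the responses were equal.

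Since the estimated CIF2 effects of *XTH18*, *XTH20* and *XTH23* were largest at different times, the effect was compared between times within a genotype. The contrasts with 120 min were added after the values had been seen. For *XTH23* in wild type the effect at 480 min did not pass as different from that at 30 min. For *XTH18* the effect at 480 min was lower than at 30 min by 1.1 on the log2 scale in wild type (SE 0.16, adjusted P = 4.14e-06) and by 1.33 in *cif1 cif2* (adjusted P = 6.37e-08), a turn from a rise to a decrease. For *XTH20* the effect at 120 min exceeded that at 30 min by 1.22 (SE 0.21, adjusted P = 0.000301) and 1.75 (SE 0.21, adjusted P = 7.24e-08), and had dropped by 1.16 and 1.46 at 480 min (adjusted P = 0.00019 and 2.23e-06). *XTH20* therefore had its largest CIF2 effect at 120 min in both genotypes, although in wild type both shifts lost the call without batch 1 (1.08 and −1.07) or batch 2 (1.12 and −0.92). In wild type its level with CIF2 was no lower at 480 min than at 120 min, while its untreated level was higher at 480 min. *XTH23* in *cif1 cif2* showed the opposite course, its effect falling by 0.60 from 30 to 120 min (adjusted P = 0.0237) and rising by 1.15 from 120 to 480 min (SE 0.18, adjusted P = 1.61e-05), and in wild type the latter shift was 0.62 (adjusted P = 0.0416). Without a batch the −0.60 of *XTH23* ran from −0.72 to −0.54 and the 0.62 from 0.53 to 0.71, each losing the call in at least 1 fit.

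*XTH24* in *cif1 cif2* shifted by −1.39 from 30 to 120 min (adjusted P = 0.000564) and by 1.21 from 120 to 480 min (adjusted P = 0.00427). *XTH21* had an effect lower at 480 than at 30 min by 0.84 in wild type (adjusted P = 0.0116) and 0.86 in *cif1 cif2* (adjusted P = 0.00828), and *XTH4* by 0.58 (adjusted P = 0.0017) and 0.43 (adjusted P = 0.0246). Without batch 1 the *XTH21* shift in wild type was −0.56 (adjusted P = 0.48). The shift of *XTH24* from 120 to 480 min, that of *XTH21* in *cif1 cif2* and those of *XTH4* also lost the call in at least 1 fit without a batch, with values of 1.02 to 1.35, −0.90 to −0.84, −0.73 to −0.47 in wild type and −0.49 to −0.37 in *cif1 cif2*. In all, 7 members shifted between 30 and 480 min in wild type (25%, against 5.14% of genes tested) and 4 in *cif1 cif2* (14.3%, against 7.35%). Between 30 and 120 min it was 2 in wild type (against 2.13%) and 4 in *cif1 cif2* (against 5.97%), and between 120 and 480 min 2 (against 2.60%) and 3 (against 4.57%).

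Without peptide, no difference between the mutants and wild type was detected in the family. By edgeR 0 of 28 members passed between untreated *cif1 cif2* and wild type at 30, 120 or 480 min with a 2-fold change (against 0.0915%, 0.0814% and 0.0559% of genes tested) or by adjusted P alone (against 0.681%, 0.737% and 0.183%), with 2, 5 and 4 members at an unadjusted P under 0.05. For untreated *sgn3* the count was also 0 at each time (against 0.0508%, 0.0508% and 0.0559%, or 0.229%, 0.0864% and 0.0915% by adjusted P alone), with 1, 3 and 4 at an unadjusted P under 0.05, and DESeq2 and limma gave 0 members with a 2-fold change in these 6 comparisons as well. The smallest adjusted P among them was 0.0858, for *XTH32* in *cif1 cif2* at 120 min (log2 difference 0.52, SE 0.16).

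More members passed for time after transfer than for CIF2, and so did more of all genes tested (27.8 to 44.5% for time, against 7.78 to 13.7% for CIF2 in wild type and *cif1 cif2*). The order is therefore not read as a trait of the family. In untreated wild type 17 of 28 members passed by adjusted P between 30 and 120 min (60.7%, against 30.3% of genes tested) and 19 between 30 and 480 min (67.9%, against 44.5%). In *cif1 cif2* it was 13 (46.4%, against 32%) and 20 (71.4%, against 29.9%), and in *sgn3* 14 (50%, against 27.8%) and 20 (71.4%, against 32.9%). With a 2-fold change 4 members passed in wild type at 120 min, 1 higher and 3 lower (14.3% of those tested, against 5.46% of genes tested in both directions), and 8 at 480 min, 3 higher and 5 lower (28.6%, against 7.11%). In *cif1 cif2* 3 passed at 120 min, 2 of them higher (against 5.13%), and 7 at 480 min, 3 of them higher (against 5.43%). In *sgn3* 5 passed at 120 min, 3 of them higher (against 5.21%), and 9 at 480 min, 3 of them higher (against 5.78%). Libraries at 30 min were the reference of both later times, so the comparisons share them.

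The members lowest at 480 min relative to 30 min in all 3 genotypes were *XTH22*, *XTH23* and *XTH24*. *XTH22* (AT5G57560), the touch gene *TCH4* and the namesake of mechanical induction in the family, went from 12.7, 15.2 and 9.90 CPM at 30 min to 3.47, 3.87 and 3.72 CPM at 120 min and 2.62, 3.48 and 3.51 CPM at 480 min in wild type. Its log2 fold change at 480 min was −1.96 in wild type, −1.88 in *cif1 cif2* and −2.35 in *sgn3*, with no overlap between 30 min and the later times. *XTH24* went from 320, 229 and 174 CPM at 30 min to 172, 124 and 96.8 CPM at 120 min and 43.1, 36.0 and 45.2 CPM at 480 min (−2.49, and −2.14 and −2.22 in the mutants). Its batch 3 library was the lowest in each genotype at 30 min without peptide, at 174, 134 and 121 CPM. *XTH23* fell by 1.41, 1.55 and 1.46 in the 3 genotypes. Of these, *XTH23* was raised by CIF2 at 480 min while falling with time, and *XTH22* passed no test with CIF2 at any time, with values of 0.28, −0.05 and 0.45 in wild type.

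**Figure D4:**
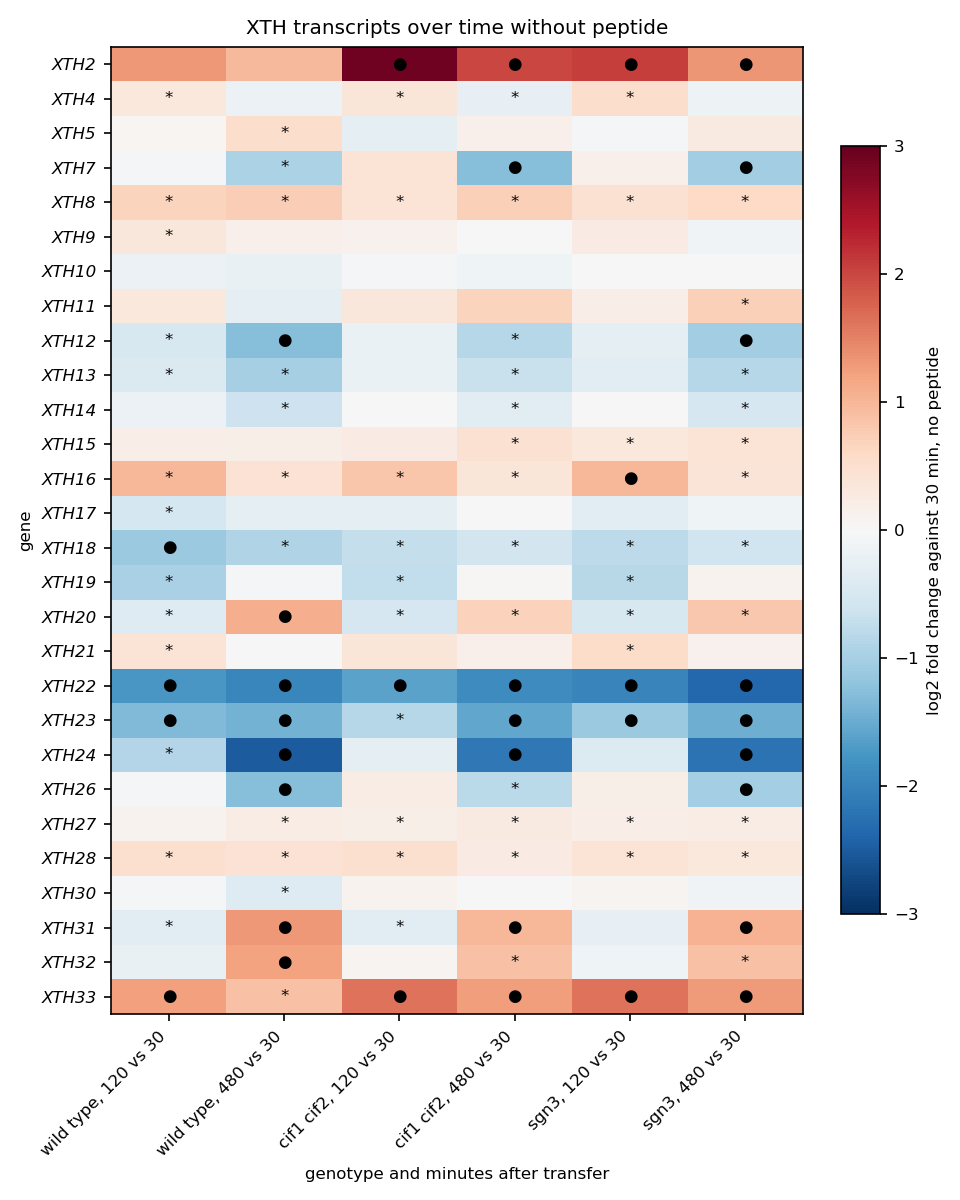
Log2 fold change of each tested member at 120 and 480 min against 30 min in untreated roots of each genotype, where an asterisk marks an adjusted P of at most 0.05 and a filled circle also a 2-fold change. *XTH31* is raised and *XTH22*, *XTH23* and *XTH24* are lowered at 480 min with a circle in every genotype.

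The other touch genes fell over the same interval. *TCH3*, a calmodulin-like gene, was lower by 1.44 at 120 min and 3.13 at 480 min in untreated wild type, and *TCH2*, another calmodulin-like gene, by 1.77 and 1.5. With CIF2, *TCH3* was higher in wild type by 1.88, 2.06 and 2.64 at the 3 times, and at 480 min it read 7.40, 8.10 and 11.8 CPM without and 67.9, 63.4 and 42.1 CPM with CIF2. In *sgn3* the *TCH3* values were 0.27, 0.22 and −0.36 and did not pass. *XTH22* and *TCH3* thus both fell with time, while with CIF2 *TCH3* passed and *XTH22* did not. Of the 3 other touch genes, 3 passed higher with CIF2 at 30 min in wild type (against 5.78% of genes tested). At 120 and 480 min only 1 did, *TCH3* (against 6.30% and 6.88%), and the counts were the same in *cif1 cif2*. At the later times the contrast with *XTH22* rests on *TCH3* alone. The difference between these genes was not tested.

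*XTH31* rose with time, from 181, 160 and 152 CPM at 30 min and 129, 134 and 126 CPM at 120 min to 370, 468 and 374 CPM at 480 min in wild type (log2 fold change 1.3 against 30 min), and by 1 and 1.04 in *cif1 cif2* and *sgn3*. In these mutants the value lay close to the 2-fold line and went down to 0.97 and 0.90 when a batch was left out. The adjusted P stayed at most 0.05 in every alternative. *XTH32*, the other hydrolase-type member, passed in all 3 genotypes and reached 2-fold in wild type (1.21), from 7.48, 6.58 and 5.62 to 14.1, 18.5 and 13 CPM. *XTH20* was 1.1 higher in wild type. *XTH33*, predicted to be anchored in the membrane, was 2-fold higher at 120 min in all 3 genotypes (1.22, 1.62 and 1.63) at levels of 0.734 to 6.55 CPM. Root members that fell included *XTH12* (−1.27) and *XTH26* (−1.28) in wild type at 480 min. *XTH14* passed downward in all genotypes without reaching 2-fold, from 349, 330 and 348 to 220, 198 and 254 CPM in wild type. In all, 8 members were higher and 9 lower at 480 than at 30 min in every genotype by adjusted P. The share of all genes tested that passed in every genotype was not counted. At 480 min both *XTH2* and *XTH7* depended on a batch: *XTH2*, at 4 to 10 counts a library at 30 min in *cif1 cif2*, was 2.01 higher there at 480 min but 1.1 without batch 3 (adjusted P = 0.297), and in *sgn3* 1.31 but 0.66 (adjusted P = 0.483), and *XTH7* in *cif1 cif2* was at −1.29 but −0.75 without batch 2 (adjusted P = 0.169), and in *sgn3* −1.03 but −0.76 (adjusted P = 0.143). At 120 min *XTH2* was 2.91 higher in *cif1 cif2* (2.46 to 3.67 with a batch left out) and 2.08 higher in *sgn3* (1.65 to 2.61). Both of these kept an adjusted P of at most 0.05 in every alternative, at the same low counts. In wild type *XTH2* had no 2-fold call at 120 min. Among the 4 root hair markers, *PRP3* and *EXPA18* fell (−0.71 and −0.37) and *RHD6* rose in wild type at 480 min. From 30 to 480 min in untreated wild type the 2 phloem markers went from a sum of 37.5 to 56.3 CPM to one of 18 to 26.4 CPM, and the 3 xylem markers from 195.3 to 205.4 CPM to 127.9 to 159.4 CPM, both without overlap. Gene by gene, 1 phloem marker passed higher and 1 passed lower, so that sum does not stand for both. Of the xylem markers 2 passed, both lower. The part of these markers in the XTH values was not tested.

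The most similar coding sequences in the family were the pairs *XTH17* and *XTH18* (92.2% of aligned bases), *XTH12* and *XTH13* (89.7%) and *XTH18* and *XTH19* (89.0%, with an identical run of 68 bases). Alignments that were not unique stood on a line of their own in the count tables (3.60 to 3.97% of the total of all lines) and were in no gene's count, so reads that match similar copies equally well may be missing from the counts of *XTH17*, *XTH18* and *XTH19*, which are uncertain to that extent. At 30 min *XTH18* rose with CIF2 in wild type by 0.73, while *XTH17* and *XTH19* read −0.12 (SE 0.15) and −0.09 (SE 0.15). *XTH18* lies 1500 bases from *XTH19* and 5161 bases from *XTH24* on chromosome 4, *XTH23* lies 363 bases from *XTH14*, and *XTH12*, *XTH13*, *XTH25* and *XTH22* stand in a row on chromosome 5. *XTH14*, next to *XTH23*, read −0.08, −0.21 and 0.22 with CIF2 in wild type at the 3 times and did not pass. *XTH15* was the 1 member whose gene overlaps another, on the opposite strand, so its values are uncertain to that extent.

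Of 15 genes of xyloglucan synthesis 14 were tested, and 0 reached 2-fold with CIF2 in any genotype or time by edgeR. By adjusted P, 3 of the 14 passed at 30 min in wild type (21.4%, against 7.78% of genes tested) and 4 in *cif1 cif2* (28.6%, against 11.6%), and 2 passed at 120 min in *cif1 cif2* (14.3%, against 13.7%). Of these the glucan synthase gene *CSLC4*, chosen after its values were seen, was 0.31 higher in wild type (adjusted P = 0.0171) and 0.38 higher in *cif1 cif2* (adjusted P = 0.0015), and *CSLC5* was lower by 0.23 and 0.29. The 3 side chain hydrolases were tested and 0 passed by adjusted P with CIF2, against 7.78 to 13.7% of genes tested in wild type and *cif1 cif2*. Of 26 alpha-expansins, which loosen walls without cutting polymers, 16 were tested. In wild type 0 passed with CIF2 at 30, 120 or 480 min (against 7.78, 10.6 and 10.1% of genes). In *cif1 cif2* 1 passed at 120 min (6.25%, against 13.7%) and 2 at 480 min (12.5%, against 10.9%): *EXPA20* was 0.32 higher at 120 min and 0.43 at 480 min and *EXPA17* 0.52 at 480 min, both named after their values were seen. In *sgn3* 0 genes of these 3 lists passed.

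**Figure D5:**
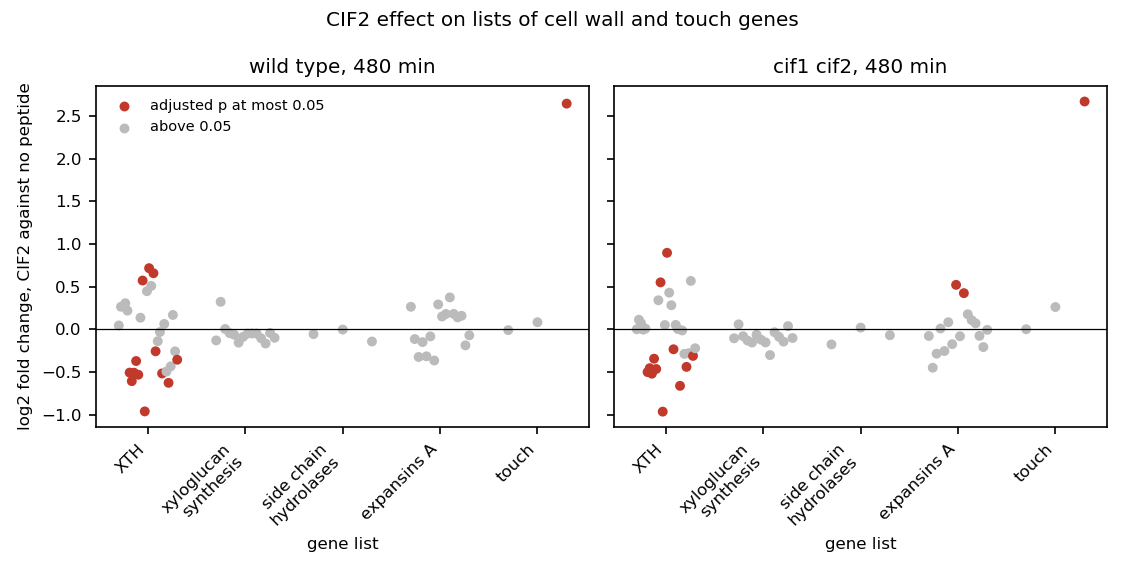
Log2 fold change with CIF2 at 480 min of the tested genes of the XTH family, the xyloglucan synthesis genes, the side chain hydrolases, the alpha-expansins and the touch genes in wild type and *cif1 cif2*, with 1 point a gene and the points with an adjusted P of at most 0.05 in red. In wild type 13 XTH points are red, 10 of them below 0, and in *cif1 cif2* 12 are, 10 of them below 0.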

How the data were processed

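Whole-root RNA from 54 libraries was sequenced from stranded mRNA preparations. The deposited values are raw read counts per gene. The authors trimmed reads with Cutadapt 1.8, filtered out reads of ribosomal RNA or of low complexity, and used STAR 2.5.3a (genome TAIR10) and HTSeq 0.9.1 for alignment and counting. Whether the counting used strand is not given in the sources used here. The 5 lines that name no gene (4.72 to 5.15% of the total of all lines) were left out.

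The 19668 genes that reached 1 CPM in any of the libraries were scaled by TMM and fitted with edgeR 4.0.16 (quasi-likelihood test, R 4.3.3) in 1 model of the 18 groups with batch as a term, and p-values were adjusted over all tested genes within each comparison by the Benjamini-Hochberg method. Rose and fell mean an adjusted P of at most 0.05. A count given as 2-fold also needs a log2 fold change of 1 or more, or −1 or less. Differences between CIF2 effects were tested as contrasts of the same model. The batch numbers of the labels pair the libraries, and deviations from group means correlated at 0.27 on average within a batch (459 pairs) and at −0.135 between batches (918 pairs). Deviations from a group mean cancel out within the group, so the second value largely follows from the first and adds no evidence of its own. The labels do not say that replicates were separate cultures. With batch as a term, p-values measure how evenly the differences between groups repeat from batch to batch. The fit was tested on simulated data.

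Members could be named freely. Members that passed in a comparison of CIF2, of CIF2 effects or of untreated genotypes are given with statistics. Genes of other lists are given in part. Some that passed with a 2-fold change under CIF2 in wild type or *cif1 cif2* are left out. The members and lists were chosen with earlier results of these data known. Comparisons numbered 33, of which 4, those of CIF2 effects with the 120 min time point, were added after values had been seen. Alternatives were limma 3.58.1 (limma-trend), DESeq2 1.42.0, DESeq2 size factors, no low-count filter, no batch term, each batch left out, only the libraries compared, and leaving out the 3 *cif1 cif2* libraries whose labels conflict. The summed level of the endodermis markers is not reported here.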

Additional observations from a re-analysis of the deposited data

Results flagged for a closer look

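The results below are differences between CIF2 effects, given as log2 differences, that passed the test of the difference itself (adjusted P of at most 0.05 by edgeR); no explanation was weighed. Between *sgn3* and wild type, the effects at 120 min differed for *XTH15* (0.52), *XTH16* (0.55) and *XTH20* (−1.66), and at 480 min for *XTH4* (0.46), *XTH21* (0.74), *XTH23* (−0.75), *XTH26* (−0.93) and *XTH31* (0.63).

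Between times in wild type, the effect at 480 min minus that at 30 min differed for *XTH4* (−0.58), *XTH9* (−0.54), *XTH13* (0.72), *XTH18* (−1.1), *XTH21* (−0.84), *XTH26* (0.91) and *XTH31* (−0.69). The effect of *XTH13* passed at neither time alone, and its shift lost the call in all 3 fits that left out a batch. Without batch 1 the *XTH9* shift was −0.31. The *XTH26* shift lost the call in 6 of 10 alternatives, among them each fit that left out a batch (0.83 to 1.06), and the *XTH31* shift lost it without batch 2 (−0.51, adjusted P = 0.136). In *cif1 cif2* the same contrast passed for *XTH4* (−0.43), *XTH18* (−1.33), *XTH21* (−0.86) and *XTH23* (0.54), of which that of *XTH23* was lost without batch 2 (0.50, adjusted P = 0.359), without batch 3 (0.44, adjusted P = 0.169) and without the batch term (0.53, adjusted P = 0.467).

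For the contrasts added after values had been seen, the effect at 120 min minus that at 30 min differed in wild type for *XTH18* (−0.82, and −0.68 without batch 1, where the call was lost) and *XTH20* (1.22), and in *cif1 cif2* for *XTH18* (−1.08), *XTH20* (1.75), *XTH23* (−0.60) and *XTH24* (−1.39). The effect at 480 min minus that at 120 min differed in wild type for *XTH20* (−1.16) and *XTH23* (0.62), and in *cif1 cif2* for *XTH20* (−1.46), *XTH23* (1.15) and *XTH24* (1.21).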

How the results depend on the processing

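Of 113 results for single members, 59 kept an adjusted P of at most 0.05 and their direction under every alternative, and 0 reversed. Among the 59 were *XTH20* at 120 min and *XTH18* at 30 min in wild type and *cif1 cif2*. The 2-fold line was not applied again in this count. A result for time could therefore lie under 2-fold in an alternative and still be kept, as *XTH26* did in *sgn3* at 480 min (−1.03, but −0.78 in 1 fit that left out a batch). Without a fold change threshold the members that passed with CIF2 numbered 3, 9 and 13 at 30, 120 and 480 min in wild type and 4, 6 and 12 in *cif1 cif2*, and with time without peptide 17 and 19 in wild type, 13 and 20 in *cif1 cif2* and 14 and 20 in *sgn3*. The count in *cif1 cif2* at 30 min went from 0 to 1 with DESeq2, with DESeq2 size factors and with only the libraries compared, since *XTH18* then crossed 2-fold. With only the libraries compared, the difference of *sgn3* from wild type gave 1 member at 30 min (0 in the model of all libraries) and 2 at 480 min (5), the shift from 30 to 480 min in wild type 4 (7) and that from 120 to 480 min 1 (2). Without the batch term, the fit without the replicate block, the difference of *sgn3* from wild type gave 1 member at 120 min (3) and 1 at 480 min (5), the shift from 30 to 480 min in wild type 4 (7) and that from 120 to 480 min 1 (2). With each batch left out in turn, the counts ran from 0 to 1 with CIF2 in *cif1 cif2* at 30 min, 1 to 2 at 120 min and 0 to 1 at 480 min, and from 0 to 1 in wild type at 480 min. The difference of *sgn3* from wild type gave 0 to 1, 1 to 2 and 2 to 3 members at the 3 times, the shift from 30 to 480 min 3 to 4 in wild type and 2 to 3 in *cif1 cif2*, and those with 120 min 0 to 3 and 0 to 3 in wild type and 3 to 4 and 2 to 3 in *cif1 cif2*. With time without peptide they ran from 5 to 5 and 8 to 9 in wild type, 3 to 3 and 6 to 7 in *cif1 cif2* and 4 to 5 and 6 to 10 in *sgn3*. Members below about 1 CPM, *XTH2* and *XTH11*, rest on few counts, so their values are the least precise.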
